A study of Drosophila melanogaster with 2 samples.

Results

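The genes described here are kirre, rst, sns, hbs, mbc, rols, blow and lmd, 8 of the 13968 protein-coding genes on the 7 chromosome arms of Drosophila melanogaster, which share a role in the fusion of embryonic myoblasts. They were found by symbol in the Ensembl BDGP6 annotation, and a peak was given to a gene when its summit, the point of highest signal, lay in the gene or within 1 kb of it. The values that chose them were the peaks themselves, with kirre as the leading gene, so peak counts and signals are given as descriptions and without tests. The data came from chromatin immunoprecipitation with sequencing (ChIP-seq) with an antibody against GFP. Both biological replicates (2 samples, 1 group) were whole embryos aged 0 to 24 h, of the strain CG14014-GFP, transgenic flies in which the product of CG14014 carried enhanced GFP. The embryos were not separated by stage or by cell type, so a peak cannot be placed in myoblasts or in any other cell. No control sample was used here. The labels describe an insertion aimed at CG14014 and give neither the promoter that drove the fusion nor the state of the endogenous copy.

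Body wall muscles of the fly embryo form when founder cells fuse with fusion-competent myoblasts. Founder cells present the immunoglobulin superfamily receptors kirre (also called dumbfounded) and rst (roughest), which bind their counterparts sns (sticks and stones) and hbs (hibris) on the fusion-competent cells. Inside the cells, the adaptor rols and the Rac activator mbc (myoblast city) link the receptors to actin, blow (blown fuse) acts on the actin focus of the fusion-competent cell, and the zinc finger factor lmd (lame duck) specifies that cell type.

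The receptor gene kirre (FBgn0028369, X, 2740384 to 3134532, plus strand, dm6) held 14 summits of the conservative list, the list of 3216 peaks that were reproducible between the replicates. It held 21 summits of the longer optimal list, 14 of the list from replicate 1 alone and 13 of that from replicate 2 alone. At least 1 summit was present in or within 1 kb of 22.7% of all protein-coding genes in the conservative list, 32.7% in the optimal list, 28.2% in the list of replicate 1 and 20.2% in that of replicate 2. Since kirre was chosen on these lists, nothing is read from its count against those shares. Of the 14 summits of replicate 1, 13 lay inside kirre. The other, at 3134839, lay past its end and 31 bp upstream of the start of N, the Notch receptor gene, with a signal of 15.5. Its span of 394 kb made it the fifth longest protein-coding gene (rank 5), and 0 protein-coding genes had more conservative summits. All 14 summits lay in introns of kirre and 0 in an annotated exon. None was at a start site of kirre itself: the nearest, at 3097197, lay 2353 bp upstream of the start at 3099550, and 0 of 14 lay within 2 kb of any of its 6 start sites. Signals, which are the authors' own value per peak on a scale not given in the sources used here, ran from 77.3 to 307 with a median of 127. The median over all 3216 conservative peaks was 128, and 7 of the 14 kirre peaks were above it.

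The windows below are 101 bp centred on a summit, plus strand, from the RefSeq release 6 genome (the dm6 assembly). The first is the peak with the highest signal in kirre. The other 4 are the windows of kirre that held the word TNAAGTG, which the muscle and heart homeodomain factor tin can bind. Capitals mark TNAAGTG on either strand and matches to the site of the muscle factor Mef2, and the first window holds neither.
chrX:2786728-2786828: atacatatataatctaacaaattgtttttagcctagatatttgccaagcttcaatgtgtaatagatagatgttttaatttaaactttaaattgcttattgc
chrX:2787372-2787472: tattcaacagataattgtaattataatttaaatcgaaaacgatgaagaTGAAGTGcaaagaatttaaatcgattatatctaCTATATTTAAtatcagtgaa
chrX:2919890-2919990: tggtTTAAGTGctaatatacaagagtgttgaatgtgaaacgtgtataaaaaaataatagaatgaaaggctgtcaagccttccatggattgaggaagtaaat
chrX:3019735-3019835: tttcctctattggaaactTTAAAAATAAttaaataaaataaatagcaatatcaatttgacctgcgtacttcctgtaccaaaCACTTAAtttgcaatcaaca
chrX:3022561-3022661: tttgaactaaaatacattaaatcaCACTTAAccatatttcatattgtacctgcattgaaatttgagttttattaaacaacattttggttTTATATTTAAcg

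The 14 windows were rich in A and T. Their GC content ran from 21.8% to 38.6% with a median of 27.2%, against a median of 31.7% over all conservative windows, 41.3% over the whole span of kirre and 42.5% over X. TNAAGTG was in 4 of the 14 kirre windows, and in 7.15% of all 3216 conservative windows of this length. The Mef2 site was in 3 of the 14, each time in a window that also held TNAAGTG, and in 8.18% of all. These counts moved with the exact summit: in windows centred on the summits of replicate 1 alone, 3 held TNAAGTG, 1 held the Mef2 site and 0 held both. At the summits of replicate 2 alone, 4 held TNAAGTG, 3 the Mef2 site and 3 both. Among the 2196 windows whose GC content lay in the range of the kirre windows, 8.06% held TNAAGTG and 9.52% the Mef2 site. The general E-box CANNTG, the class of word bound by basic helix-loop-helix factors such as twi and nau, was in 3 of the 14 kirre windows and in 35.4% of all. CAGCTG (3.86% of all), CATATG (4.07%), GAGAG (8.30%) and the DNA replication-related element (1.65%) were in 0 of the 14. TAATTA was in 2 of 14 (10.2% of all) and TTAAAA in 4 of 14 (34.9% of all). All words were counted on both strands, and TNAAGTG and the Mef2 site did not overlap in any printed window. With 14 windows these counts describe the windows only, and a match is not evidence of a bound site.

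**Figure D1:**
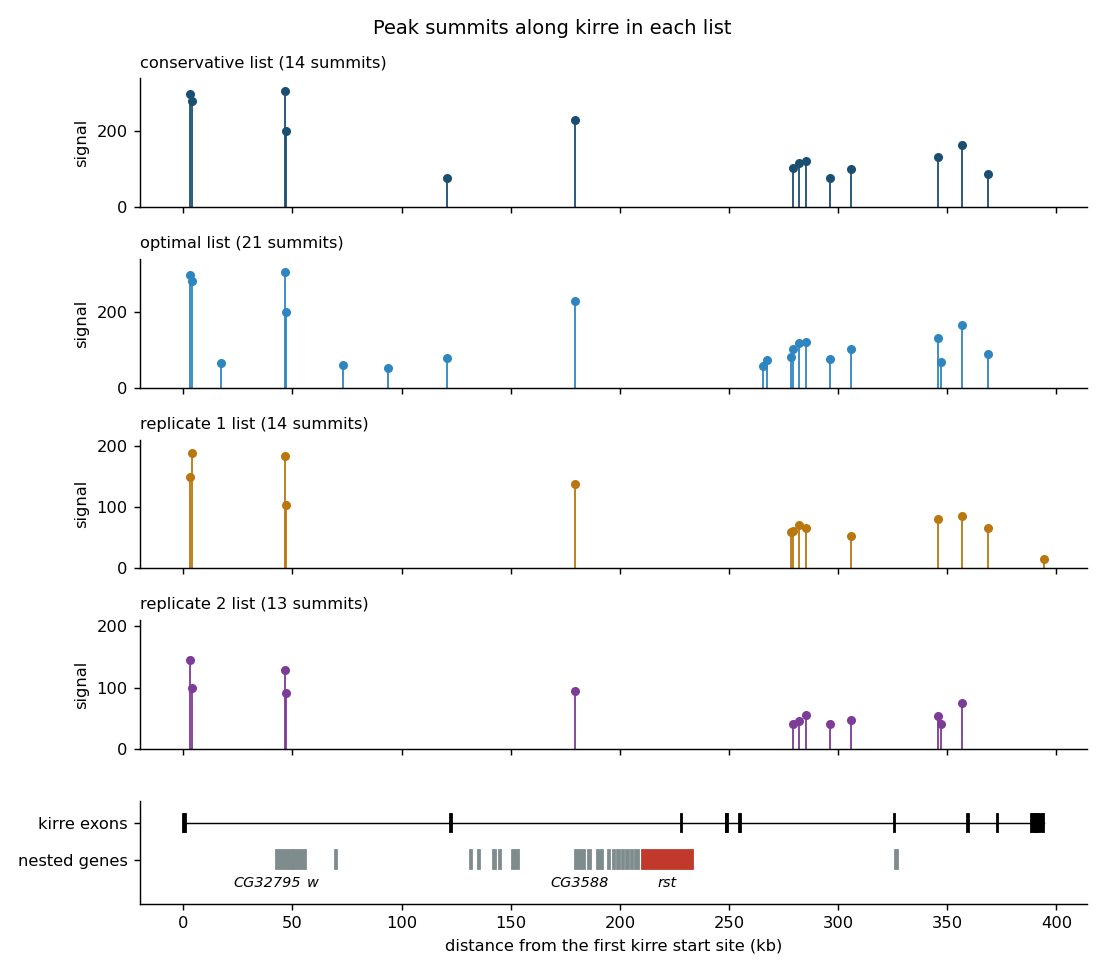
Signal of each peak (y axis, the authors' value, from 0) against the distance of its summit from the first start site of kirre (x axis, kb), with 1 panel per list. The lowest panel shows the exons of all kirre transcripts and the protein-coding genes nested in kirre, with rst in red. Summits fall into a group within the first 50 kb, single summits at 121 and 180 kb and a group from 279 to 369 kb in the conservative list.

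The strongest peaks of kirre lay in its first long intron, from 2741245 to 2862763 (121.5 kb), among other genes. This intron held 5 conservative summits. The peak at 2743205 to 2743382 had a signal of 298 in the conservative list, 149 in replicate 1's own ranking and 145 in replicate 2's. Its neighbour at 2744163 to 2744328 had a signal of 281, with 188 in replicate 1 and 99.99 in replicate 2. Both lay near starts of Syx4, a syntaxin gene on the opposite strand whose span overlaps the first exons of kirre. The summit of the first lay inside Syx4, 322 bp upstream of an internal start of it. That of the second lay outside Syx4, 155 bp upstream of a different start of it. The 2 summits lay 2475 and 3426 bp downstream of a start of kirre.

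A second pair of summits lay in introns of both kirre and CG32795, a gene nested on the opposite strand next to w, the eye pigment transporter gene white. The peak at 2786679 to 2786873 had the highest signal of all kirre peaks, 307, with 184 in replicate 1 and 129 in replicate 2. The peak at 2787257 to 2787586 had a signal of 201, with 103 and 91.4 in the replicates. They lay 2544 and 1900 bp downstream of the nearest start of a protein-coding gene, that of CG32795. The gene w held 0 summits in each of the 4 lists. The last summit of this intron, in the peak at 2860986 to 2861315, had a signal of 78.3 (41.1 and 34.7 in the replicates). It lay 11702 bp from the nearest start of a protein-coding gene, and starts of other genes were not searched.

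The next intron, from 2862817 to 2968280 (105.5 kb), holds 16 complete protein-coding genes and had 1 conservative summit. That peak, at 2919870 to 2920013, lay 170 bp downstream of the start of CG3588, inside an intron of it, and had a signal of 229, with 137 in replicate 1 and 93.95 in replicate 2. Of the 21 protein-coding genes nested within kirre, 2 had a summit in the gene or within 1 kb in the conservative list, CG32795 and CG3588, and the same number had one in each other list. In all, 3 of the 14 summits (21.4%) lay within 500 bp of a start site of a protein-coding gene, at Syx4 and CG3588, against 48.8% of all conservative summits. The median distance to the nearest start of a protein-coding gene was 10644 bp for the kirre summits and 540.5 bp for all conservative summits. Summits in a gene with such long introns can lie far from any start, and summits of other long genes were not set beside them. Nothing is therefore read from either contrast.

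The intron from 2995489 to 3066110 (70.6 kb) holds no other complete protein-coding gene and had 5 conservative summits, a density of 70.8 per Mb. Of these, 3 stood close together, at 3019785, 3022611 and 3025715. Their signals were 104 (60.7 and 41.4 in replicates 1 and 2), 118 (70.6 and 44.95) and 122 (66.5 and 55.2). The 2 further summits, at 3036742 and 3046146, had signals of 77.3 (35.2 and 39.95) and 102 (53.1 and 47.9). All 5 were more than 20 kb from the nearest start site of a protein-coding gene, the closest at 21336 bp.

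Towards the end of kirre, 3 more conservative summits flanked the internal starts near 3099550. A further start of kirre lies downstream of these, at 3128639. The peak at 3085872 to 3086201 had a signal of 131 (80.97 in replicate 1 and 53.1 in replicate 2), the peak at 3097127 to 3097273 had 165 (85.2 and 75.4) and the peak at 3109003 to 3109332 had 88.4 (65.6 and 27.9). They lay 13513 bp upstream, 2353 bp upstream and 9586 bp downstream of a kirre start. The last of them showed the largest ratio between the replicates in kirre, 2.35, and was in the list of replicate 1 and not in that of replicate 2.

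Adjacent conservative summits of kirre were 644 bp to 99.8 kb apart. The median of the 13 distances was 11.16 kb, and it was 12.8 kb over the 628 distances on X and 14.6 kb over the 7 arms. The order of kirre and X depended on the list. In the optimal list the median was 10985 bp in kirre, 7684 bp on X and 7842 bp over the arms, and in the list of replicate 1 it was 11933, 8690 and 9136 bp. Replicate 2 had the order of the conservative list, with 9614 bp in kirre, 14375 bp on X and 18688 bp over the arms. Pairs within 1 kb of each other were 2 of 13, at Syx4 (951 bp) and CG32795 (644 bp), or 15.4% of the distances, against 12.7% on X. This order also turned in the optimal list, with 15.0% in kirre and 16.2% on X. The group at 3019785 to 3025715 was spaced by 2826 and 3104 bp. Further along came distances of 11.03, 9.40, 39.9, 11.16 and 11.97 kb. The longest stretch without a conservative summit ran from 2919940 to 3019785 and holds 11 complete protein-coding genes, rst among them. It was not empty of weak peaks: the ranking of the true replicates, which keeps peaks of any reproducibility, had 112 summits there, or 112 of the 377 in kirre. The other long stretches measured 73.7, 58.8 and 42.5 kb. The 5 transposable element insertions that the annotation places in kirre (roo, mdg1, pogo, FB and Transpac) held 0 conservative and 0 optimal summits. They measured 186 to 8490 bp, and whether peaks could be called in them was not tested, so nothing is read from these counts.

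**Figure D2:**
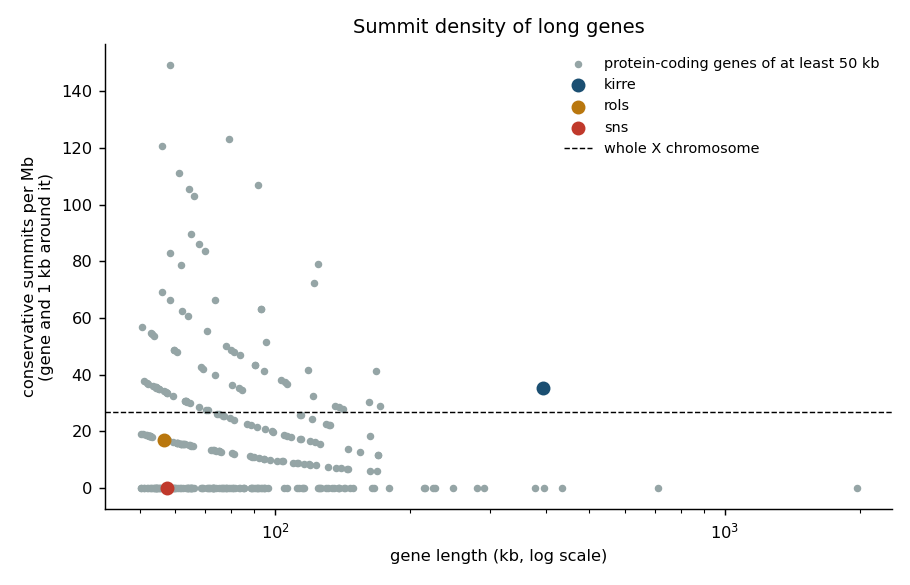
Conservative summits per Mb (y axis, gene and 1 kb around it) against gene length (x axis, kb, log scale) for the 313 protein-coding genes of at least 50 kb; the dashed line is the whole X chromosome at 26.7 per Mb. The gene kirre lies at 35.3 per Mb, rols at 17.1 and sns at 0.

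Per length, kirre had 35.3 conservative summits per Mb, against 26.7 per Mb over the whole of X. The densities were 53.0 and 43.2 per Mb in the optimal list and 32.8 and 23.5 per Mb in that of replicate 2. In the list of replicate 1 they were close, 35.3 and 34.0 per Mb. The median of the 313 protein-coding genes of at least 50 kb was 10.4 per Mb and their upper quartile 27.5, and 53 of them had a higher density than kirre. At least 1 conservative summit was present in 55.9% of these long genes and in 22.7% of all protein-coding genes. The long genes were drawn from every arm, Y included, and the whole of Y had 0 conservative summits. Whether regions in which peaks could not be called lowered the median, the quartile and the shares was not tested. The genes next below kirre by count were shorter: CHES-1-like had 12 summits in 27.0 kb, and CG1677, CG32264 and sbb had 10 each in 124.7, 91.6 and 79.1 kb. The 4 genes longer than kirre lie on other chromosomes and had 0 in each of the 4 lists. They are Pzl (3R, 2554162 to 3263582), Myo81F (3R, 567076 to 2532932), lovit (3L, 25236940 to 25670980) and CG17684 (2R, 1866080 to 2262115). Whether peaks could be called in these regions was not tested, so nothing is read from their counts against that of kirre.

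Each conservative peak of kirre had a peak in the ranking of both replicates, with higher signals in replicate 1 at most of them. The conservative list was chosen for reproducibility between the replicates, so nothing is read from that presence. Of the 14 conservative peaks, 12 overlapped a peak of the replicate 1 list and 12 a peak of the replicate 2 list (85.7% each). Of the 14 summits in the list of replicate 1, 11 were in peaks that overlapped one of replicate 2 (78.6%), and 11 of the 13 of replicate 2 overlapped one of replicate 1 (84.6%). The same shares over all peaks of each list are not given here, so nothing is read from those of kirre. The weak peak at 2860986 to 2861315 was in neither list. Summits of the replicates' own peaks lay at most 51 bp from the conservative summit in replicate 1 and at most 33 bp in replicate 2. Signals of the 14 peaks ran from 35.2 to 188 (median 75.8) in replicate 1 and from 27.9 to 145 (median 54.1) in replicate 2. The ratio of replicate 1 to replicate 2 ran from 0.882 to 2.35 with a median of 1.31, and replicate 1 was higher at 13 of 14 peaks. Over the 3177 conservative peaks with a value in both, the median was 1.22 and replicate 1 was higher at 68.1%. Read depth is unknown for both replicates, and its part in these ratios was not tested.

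**Figure D3:**
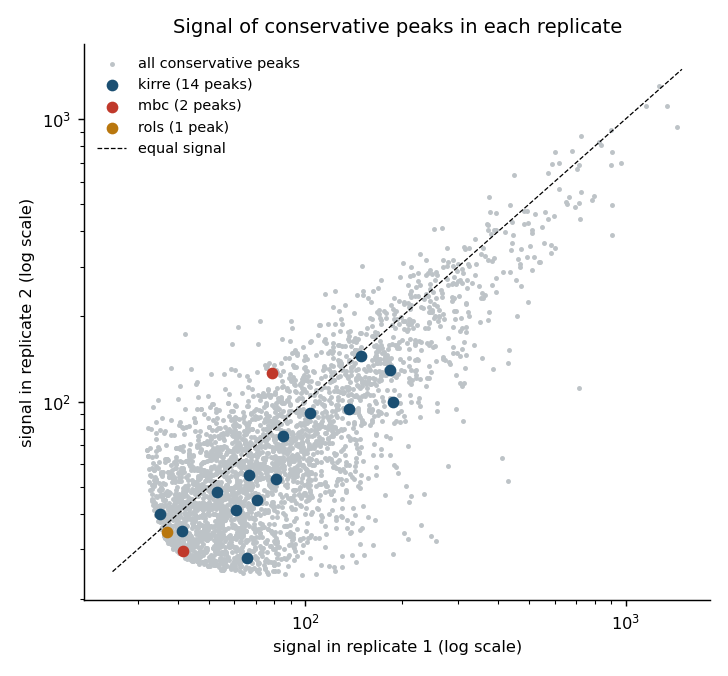
Signal in replicate 2 (y axis) against replicate 1 (x axis), both log scales, for the conservative peaks with a value in both replicates (grey) and for those of kirre, mbc and rols (coloured); the line marks equal signal. Of the 14 kirre peaks, 13 lie on the side of replicate 1, as does the rols peak, and the mbc peak at the gene start lies on the side of replicate 2.

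The optimal list added 7 peaks in kirre. Their signals ran from 52.0 to 81.1, and their summits lay 3454 to 29841 bp from the nearest start site of a protein-coding gene. With them, the 70.6 kb intron held 8 summits and the first long intron also 8. Among them, the summit at 3018892 stood 893 bp before the one at 3019785 and was in the list of replicate 1, with a signal of 58.6 there and no overlapping peak in the ranking of replicate 2. The summit at 3087304 was in the list of replicate 2 with a signal of 41.0, against 26.7 in the ranking of replicate 1. Conservative peaks had a global irreproducible discovery rate (IDR), the estimated share of irreproducible peaks among a peak and all ranked above it, of 0.01 or less. Just inside that threshold, the peak at 3036577 to 3036906 had a global IDR of 0.00844 and a signal of 77.3. Just outside it, the peak with its summit at 2757523 had 0.0125 and a signal of 64.6. The peak with its summit at 3018892 was well outside it, at 0.122, in spite of its signal of 81.1. These IDRs come from the ranking of the true replicates. The optimal list also draws on a ranking of pooled reads, whose IDRs are not given here.

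The second founder cell receptor, rst (FBgn0003285, X, 2950399 to 2973834, minus strand), lies inside the span of kirre and had 0 summits in each of the 4 lists. It falls in the longest stretch of kirre without a conservative summit. The ranking of the true replicates had 31 summits in rst or within 1 kb, or 1.22 per kb, against a median of 1.05 per kb over protein-coding genes and 0.952 in kirre. The strongest of them, at 2951729 to 2952058, had a signal of 61.8 and a global IDR of 0.0164. The paralogous pair had 14 conservative summits against 0, in genes that differ in length, 394 kb against 23.4 kb. Since kirre was chosen on these peaks and the lengths differ, nothing is read from that contrast.

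The gene mbc (FBgn0015513, 3R, 23781765 to 23801634, plus strand), whose product activates Rac together with Ced-12, had 2 conservative summits. The peak at 23781479 to 23781671 had a signal of 206, the highest among the 8 genes outside kirre, with 78.5 in replicate 1 and 126 in replicate 2. It was in both replicate lists, and its ratio of 0.621 was the lowest of the 17 conservative peaks of these genes. Its summit lay 160 bp upstream of the start of mbc and 16 bp inside Nup98-96, a nucleoporin gene that is transcribed away from mbc, so the peak cannot be given to 1 of the 2 genes. The second peak, at 23783931 to 23784260, lay in an intron of mbc, 2331 bp downstream of its start, and had a signal of 73.2 (41.4 in replicate 1 and 29.7 in replicate 2). It was in the list of replicate 2 and not in that of replicate 1. The optimal list added a peak with its summit 1514 bp downstream of the start, with a signal of 106 overall and 109 in replicate 1. That peak had no overlapping peak in the ranking of replicate 2, and its global IDR in the ranking of the true replicates was 0.788. The list of replicate 1 had 1 further peak, with its summit in an intron at 23788571, 6806 bp downstream of the start, a signal of 35.6 and no overlapping peak in the ranking of replicate 2. The window of the peak shared with Nup98-96, plus strand of dm6, is given here because it was the strongest outside kirre, and it holds neither TNAAGTG nor the Mef2 site.
chr3R:23781555-23781655: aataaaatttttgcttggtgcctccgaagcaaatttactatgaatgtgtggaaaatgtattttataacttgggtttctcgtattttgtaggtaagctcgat

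The adaptor gene rols (FBgn0041096, 3L, 12008225 to 12064859, minus strand) had 1 conservative summit, in the peak at 12050670 to 12050999, in an intron 5639 bp downstream of a start of rols. Its signal was 76.1, with 37.0 in replicate 1 and 34.4 in replicate 2, and it was in neither replicate list. Its global IDR of 0.00853 was just inside the threshold. The optimal list added 2 peaks. One, with its summit at 12045599, lay 1020 bp from the start of CG43638, a gene nested in rols, and had a higher signal, 112, but differed between the replicates, with 84.7 in replicate 1 and 23.6 in replicate 2. The other, with its summit at 12056816, lay 342 bp upstream of a start of rols and had a signal of 58.9 (39.7 and 25.9). The density of conservative summits in rols, 17.1 per Mb, was below that of kirre.

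**Figure D4:**
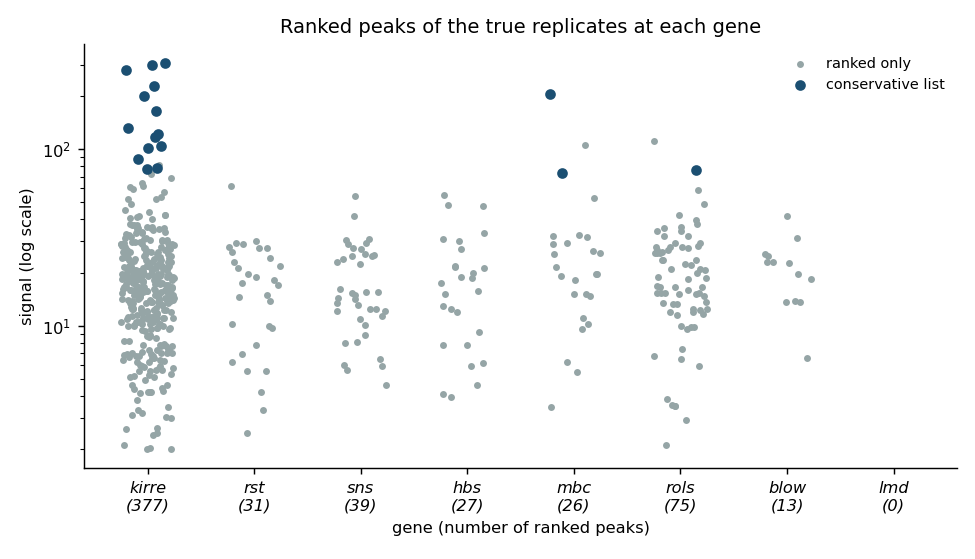
Signal (y axis, log scale) of every peak in the ranking of the true replicates in each of the 8 genes and 1 kb around it, with conservative peaks filled. The conservative peaks are in kirre (14), mbc (2) and rols (1), and lmd has no ranked peak.

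The receptors of the fusion-competent cells had no conservative or optimal summit. In sns (FBgn0024189, 2R, 8798489 to 8856091, plus strand), the list of replicate 1 had 1 summit, 41 bp upstream of the start, with a signal of 42.4 there and 16.1 in the ranking of replicate 2. In hbs (FBgn0287864, 2R, 15011396 to 15042134, plus strand), the list of replicate 1 had 1 summit, 75 bp downstream of the start in an exon, with signals of 40.8 and 12.6. Both thus lay at the start of the gene, and both were higher in replicate 1, with ratios to replicate 2 of 2.63 and 3.25. In the ranking of the true replicates their global IDRs were 0.232 and 0.671.

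The gene blow (FBgn0004133, 2R, 7580488 to 7587079, minus strand) had 0 summits in the 4 lists and 13 in the ranking, the strongest with a signal of 41.6 and a global IDR of 0.0621. The gene lmd (FBgn0039039, 3R, 23021222 to 23026713, minus strand) had 0 in the 4 lists and 0 in the ranking. A protein-coding gene with no ranked peak was not rare: 19.3% of all had none, and 11.5% of the 1879 genes of 4 to 8 kb, the class of lmd (5.49 kb). Over the 8 genes, 17 conservative summits lay in 3 genes, 27 optimal summits in 3, 20 summits of replicate 1 in 5 and 15 of replicate 2 in 2. Over all protein-coding genes, the shares with a summit in these lists were 22.7%, 32.7%, 28.2% and 20.2%, and 55.9% of genes of at least 50 kb had a conservative one. Of the 17 conservative summits, 14 were those of kirre.

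Of 27 other genes of myoblast fusion and muscle fate, 14 had a conservative summit in the gene or within 1 kb (51.9%), 20 an optimal one (74.1%), 18 one in replicate 1 (66.7%) and 12 one in replicate 2 (44.4%). The shares of all protein-coding genes were 22.7%, 32.7%, 28.2% and 20.2% in the same order. The list was drawn up with earlier results of these data known, and its genes differ in length, so these shares are descriptions. It names no source for the part of each gene in fusion or muscle fate, that of Ptp10D included. The highest signal was at tin, the homeodomain factor of the heart and dorsal mesoderm, 390 with the summit 192 bp from its start. Cip4, an F-BAR protein of membrane and actin remodelling, followed with 315 at 360 bp, and Hem, a subunit of the SCAR complex that activates branched actin assembly, with 269 at 331 bp. The receptor tyrosine phosphatase gene Ptp10D had 223 at 1087 bp, the formin gene dia 192 at 1006 bp and the muscle factor gene Mef2 191 at 1780 bp. The genes sing, Arpc1, Crk, Ced-12, Arf6 and Alk had 0 summits in each of the 4 lists. They measured 1801 to 14719 bp. Crk lies on chromosome 4, which had 3.71 conservative summits per Mb, against 26.7 on X. Nothing is read from their counts.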

How the data were processed

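ChIP-seq with an anti-GFP antibody was available for 2 biological replicates of 1 group. Per the labels, chromatin was sheared by sonication to fragments of 200 to 800 bp. Each peak carries a signal value that the authors deposited without stating its scale, and the rankings carry the −log10 of the global IDR as the authors deposited it. The build is dm6 per the file notes. Names of the aligner and caller were not given in the sources used here. The conservative list draws on the true replicates, and the optimal list also on a ranking of pooled reads. The 16 columns that hold the separate inputs of the 2 series rankings were not used. Read counts were not part of the lists: depth is unknown for both replicates, and intervals that need it were left out.

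Summits on the 7 chromosome arms were given to protein-coding genes of Ensembl release 115 when inside the gene or within 1 kb. Signals in each replicate came from its own ranking, by an overlap of at least 1 bp. Words were counted on both strands in windows of 101 bp of the RefSeq release 6 sequence. The counting functions were tested on simulated data. No test was run, because the members and lists were chosen with earlier results of these data known. Named genes were the 8 members, the genes within 1 kb of their summits, the genes next to kirre by summit count and 6 other fusion genes by highest signal. The very long genes, the nested gene w and the fusion genes without a summit were named after their values were seen. Alternatives were the optimal and single-replicate lists, stricter IDR thresholds, other windows and merged peaks. Python 3.11.15, numpy 2.4.6, pandas 2.3.3 and matplotlib 3.10.9 were used.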

Additional observations from a re-analysis of the deposited data

How the results depend on the processing

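The count in kirre (14), that in the 8 genes (17), the members with a summit (3) and the median spacing in kirre (11160 bp) were each unchanged with a global IDR of 0.01 or less in the ranking, within 2 kb, by peak overlap and after merging. Counting the gene span alone gave 16 summits in the 8 genes and left the other 3 values as they were. With a global IDR of 0.001 or less, kirre had 9 summits at a median spacing of 26854 bp, the 8 genes had 10, and 15.4% of protein-coding genes had a summit. The optimal list gave 27 summits in the 8 genes and 32.7% of genes, and the gene span alone gave 9.55% of genes. With 1 replicate left out, the count ranged from 13 to 14 in kirre and from 15 to 20 in the 8 genes, the members with a summit from 2 to 5, the spacing from 9614 to 11933 bp and the share of genes from 20.2% to 28.2%. The members with a summit numbered 5 without replicate 2. Another alternative, chosen after seeing the data, left out summits within 500 bp of the start of another protein-coding gene. It left 11 in kirre and 13 in the 8 genes, still in 3 genes. The cause of these differences was not tested. No paired analysis was possible because there was 1 group. Without read counts or a control, weak peaks could not be set against depth or background.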
